A study of Mus musculus with 5 samples.

Results

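A single altered copy of Rb separates the genotypes compared: RbΔL/+ mouse embryonic fibroblasts, with 1 ΔL allele and 1 normal allele, and Rb+/+ fibroblasts, with normal alleles only. The members were chosen by genotype label and comprise 2 of the 5 libraries of the series, with the input library as the common reference. All cells were primary embryonic fibroblasts harvested while proliferating at passage 4, and γH2AX chromatin was precipitated with 1 antibody lot from Millipore. Libraries were sequenced as paired reads of 100 bases. The labels give no strain, embryo number or embryo sex, and no genotype for the input. They do not say whether cells of several embryos were pooled, and ChIP counts cannot check the fibroblast label against marker genes.

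γH2AX is histone H2AX phosphorylated by checkpoint kinases around broken DNA and stalled replication forks. The retinoblastoma protein, the product of Rb, holds E2F transcription factors in check. Through the cleft that the ΔL allele alters, it also binds chromatin regulators that carry an LXCXE motif. Condensin II, named in the series title beside RB and E2F1, compacts chromosomes for mitosis. The title speaks of haploinsufficiency, and the heterozygous library addresses what 1 ΔL allele does while a normal allele is present.

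The libraries held 13731924 counts in RbΔL/+, 17896985 in Rb+/+ and 17180437 in the input. RbΔL/+ thus had 76.7% of the Rb+/+ depth. Each genotype is 1 library, so the 95% intervals below cover counting error only, the labels mention no molecular identifiers for the reads, and no difference has a replicate check. The part of depth, antibody yield or library preparation in any difference was not tested.

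Repeats together took a larger share of the RbΔL/+ library. Counts outside the unique genome were 11.3% in the input, 10.2% in Rb+/+ and 10.97% in RbΔL/+. Of the 12 classes, 9 had a larger share in RbΔL/+ than in Rb+/+ and 3 a smaller one, each with an interval that leaves out 1. The classes that were higher in RbΔL/+ gained 0.916 percentage points of all counts. The unique genome gave up most of these, with 89.8% of counts in Rb+/+ and 89.0% in RbΔL/+, a difference of -0.804 points. The median class ratio of RbΔL/+ to Rb+/+ was 1.12, a shift of 0.16 on the log2 scale. Relative to that shift 5 classes stood higher and 5 lower with intervals that leave out 1. Dividing by the median puts as many classes above 1 as below, so this even split is no result. The directions below are given on both scales where they part.

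**Figure D1:**
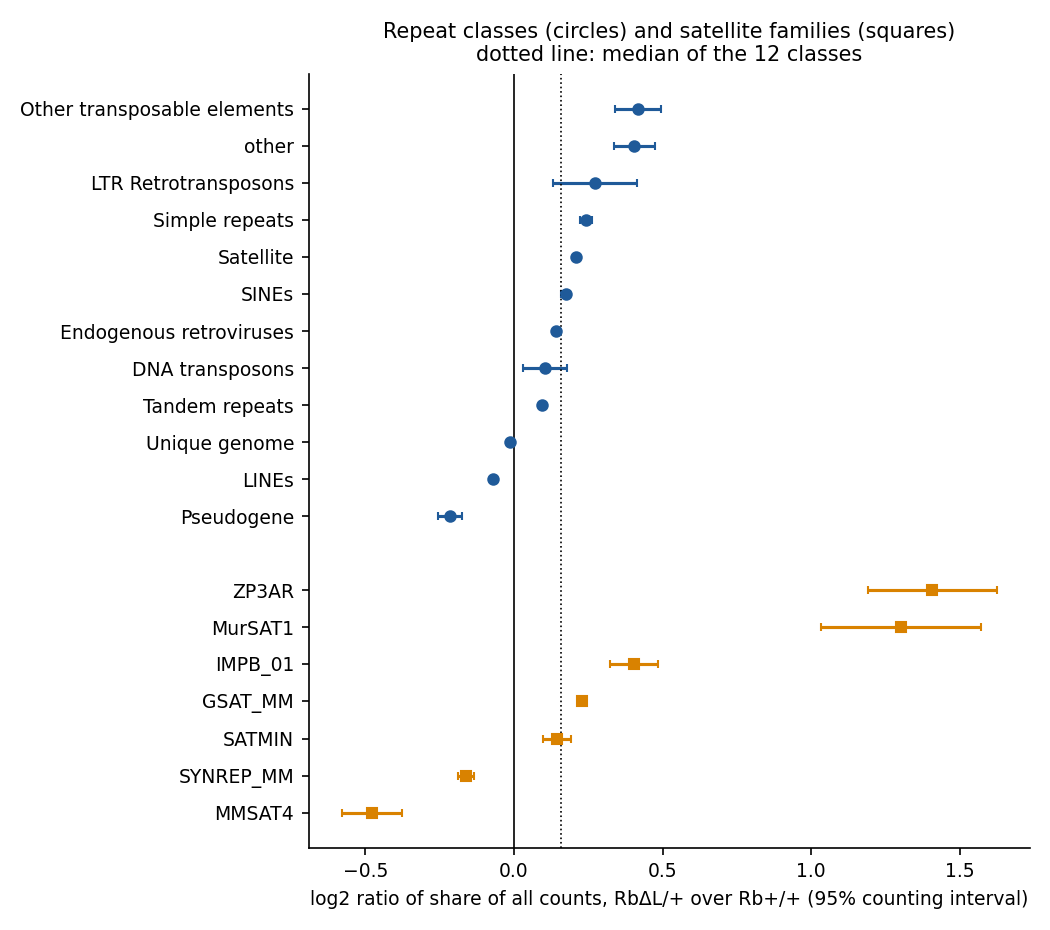
The log2 ratio of each item's share of all counts in RbΔL/+ to that in Rb+/+ is plotted for 12 repeat classes (circles) and 7 satellite families (squares), with 95% counting intervals as bars. Among the classes, 9 points lie right of 0 and 3 left of it, and the dotted line marks the class median of 0.16, with endogenous retroviruses, DNA transposons and tandem repeats between 0 and that line; ZP3AR and MurSAT1 lie furthest right.

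Satellites, the tandem arrays that build mouse centromeres and their flanks, gained more percentage points than any of the other 11 classes. Their share was 3.95% in the input, 2.71% in Rb+/+ and 3.13% in RbΔL/+. RbΔL/+ lay above Rb+/+ and below the input. The difference between the genotypes was 0.422 percentage points, a ratio of 1.16 (1.15 to 1.16), and relative to the median class it was 1.04.

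GSAT_MM, the major satellite of pericentromeric heterochromatin, had the largest difference of the 7 families in percentage points. It made up 3.73% of input counts, 2.48% of Rb+/+ counts and 2.91% of RbΔL/+ counts. Its difference of 0.429 points exceeded that of the whole class, in which MMSAT4 and SYNREP_MM were lower in RbΔL/+. SATMIN, the minor satellite on which the kinetochore is built, stood at 526 CPM (its count scaled to a library total of 1000000) in the input, 463 in Rb+/+ and 511 in RbΔL/+. Its ratio between the genotypes was 1.11 (1.07 to 1.14). As a share of satellite counts it was instead lower in RbΔL/+, at 1.63% against 1.71%, and with the median class ratio set to 1 its ratio was 0.991. The minor satellite thus had a higher share of all counts in RbΔL/+ but a smaller ratio than the major satellite, whose ratio was 1.17 (1.17 to 1.18).

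Mobile elements did not move as a block. Endogenous retroviruses, the remains of retroviral insertions, made up 2.12% of counts in the input, 2.17% in Rb+/+ and 2.39% in RbΔL/+, a ratio of 1.10 (1.10 to 1.11) between the genotypes. SINEs, short elements copied by the machinery of LINEs, were at 3959 CPM in the input, 3881 in Rb+/+ and 4380 in RbΔL/+. Their ratio of 1.13 (1.12 to 1.14) was among the middle ones of the 12 classes. The LTR retrotransposon class, which rests on only 824 and 764 counts, stood at 47.8, 46.0 and 55.6 CPM in the same order, a ratio of 1.21 (1.10 to 1.33). LINEs, which encode their own reverse transcriptase, went the other way. They held 1.95% of input counts, 2.14% of Rb+/+ counts and 2.03% of RbΔL/+ counts, a ratio of 0.952 (0.947 to 0.956). RbΔL/+ lay nearer to the input than Rb+/+ did for LINEs and further from it for SINEs and retroviruses. Relative to the median class, retroviruses fell on the lower side (0.988) and SINEs were near it (1.01), while LINEs remained lower (0.853).

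The largest class ratios belonged to small classes. Other transposable elements were at 168 CPM in the input, 147 in Rb+/+ and 196 in RbΔL/+, a ratio of 1.34 (1.27 to 1.41). The class the authors named other had 213, 183 and 242 CPM, a ratio of 1.32 (1.26 to 1.39). In both, Rb+/+ lay below the input and RbΔL/+ above it. Simple repeats, short runs of a repeated motif, had 2345, 2479 and 2932 CPM, a ratio of 1.18 (1.17 to 1.199) that stayed above 1 relative to the median class (1.06). DNA transposons, many of which move by excision, had 186, 176 and 189 CPM. Their ratio of 1.08 (1.02 to 1.13) was 0.964 relative to the median class. Tandem repeats, at 2.54%, 2.39% and 2.55% of counts, had a ratio of 1.07 (1.06 to 1.07), which became 0.958 on that scale.

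Both libraries held several times the input's share of the class named Pseudogene, RbΔL/+ less than Rb+/+. It had 114 CPM in the input, 698 in Rb+/+ and 601 in RbΔL/+. The ratio of RbΔL/+ to Rb+/+ was 0.862 (0.838 to 0.886), and relative to the median class it was 0.773.

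ZP3AR, MurSAT1 and MMSAT4, all small satellite families, differed by more than any of the 12 classes did. ZP3AR was at 27.6 CPM in the input, 14.1 in Rb+/+ and 37.4 in RbΔL/+, on 475, 252 and 513 counts. Rb+/+ lay below the input and RbΔL/+ above it, and the ratio between them was 2.65 (2.28 to 3.08). MurSAT1 was at 10.7, 9.33 and 23.0 CPM, on 183, 167 and 316 counts, a ratio of 2.47 (2.04 to 2.97). The interval of Rb+/+ to the input held 1 and that of RbΔL/+ to the input lay above it. The same was true of IMPB_01, with 137, 140 and 186 CPM and a ratio of 1.32 (1.25 to 1.398).

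A pair of families was lower in RbΔL/+. MMSAT4 had 89.8 CPM in the input, 123 in Rb+/+ and 88.4 in RbΔL/+, a ratio of 0.718 (0.669 to 0.770). Here the interval of RbΔL/+ to the input held 1 and that of Rb+/+ lay above it. SYNREP_MM had 1463, 1531 and 1368 CPM, a ratio of 0.894 (0.877 to 0.911), with Rb+/+ above the input and RbΔL/+ below. Of the 7 families with over 3 counts, 5 were thus higher and 2 lower in RbΔL/+. The 6 others had at most 2 counts in any of these libraries. The directions of ZP3AR, MurSAT1, IMPB_01, GSAT_MM, MMSAT4 and SYNREP_MM were the same with all counts, repeat counts, satellite counts or the median class as the reference.

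**Figure D2:**
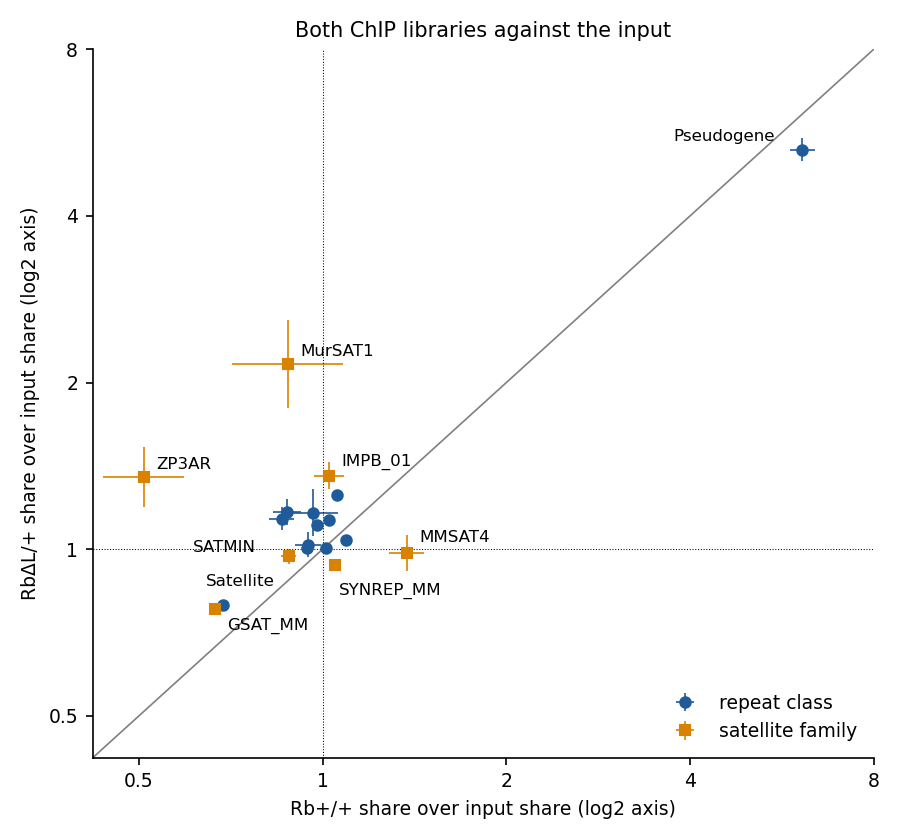
Each point is a repeat class (circle) or satellite family (square), placed by its share relative to the input in Rb+/+ (horizontal, log2 axis) and in RbΔL/+ (vertical, log2 axis), with 95% counting intervals. Points above the diagonal are higher in RbΔL/+; Pseudogene lies far from the rest in both libraries, at 6.11 and 5.27 times the input.

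Across the 12 classes, the absolute log2 ratios between these 2 libraries ran from 0.01 for the unique genome to 0.42 for other transposable elements. The median absolute log2 ratio between Rb+/+ and RbΔL/+ was 0.19, the highest among the 10 pairs of the 5 libraries. By the percentage of counts that fell in other classes, the pair was the ninth of 10, at 0.916%, with the input and Rb+/+ furthest apart at 1.403%. The next median was 0.18, for RbΔL/+ against RbΔL/ΔL, and the most alike pair, the input and RbΔL/ΔL, had 0.03. The largest absolute log2 ratio of any class, 0.42 here, ran from 0.57 to 2.61 in the other 9 pairs. RbΔL/+ had the highest share of the 4 ChIP libraries for 6 of the 12 classes and the lowest for 0. Rb+/+ had the lowest share for 4 classes and the highest for 2. For satellites Rb+/+ was the lowest of the 4, and RbΔL/+ ranked 3. How far 2 libraries of 1 genotype would differ was not measured.

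The peak lists were similar in number and differed in shape. Each list was given the genotype of its GEO sample. The names of the lists carry a sample number 1 higher than those samples' labels. By those numbers the Rb+/+ list would be that of RbΔL/+ and the RbΔL/+ list that of RbΔL/ΔL, and the last list would match no sample. All peak results rest on the first reading, while the names of the count tables fit their samples. On the 19 autosomes the authors listed 3609 peaks in Rb+/+ and 3691 in RbΔL/+, of 11254 peaks in the whole series. These covered 1.44 Mb and 1.47 Mb. The sex chromosomes, left out here, differed: X held 6.43% of all Rb+/+ peaks and 2.11% of all RbΔL/+ peaks, and Y held 0 and 18 peaks, with the sex of the embryos not in the labels and its part in the results not tested. The lists hold no read counts per peak, so the depth behind a single peak is unknown.

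Peak scores were lower in RbΔL/+, the shallower library. The score is the authors' own value, no source used here gives its scale, and scores of this kind depend on depth and background. The median score was 72.03 in Rb+/+ and 63.4 in RbΔL/+. The share of peaks that reached 100 was 21.8% (786 peaks) in Rb+/+ and 4.25% (157 peaks) in RbΔL/+. Many peaks shared exactly the same score. The commonest score, 72.03, belonged to 402 peaks of Rb+/+, and in RbΔL/+ the commonest was 66.39, with 213 peaks. The 10 most frequent scores covered 39.9% of peaks in Rb+/+ and 20.6% in RbΔL/+.

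Widths were spread more in Rb+/+. The median width was 391 bp (quartiles 285 and 502) in Rb+/+ and 408 bp (336 and 459) in RbΔL/+. Peaks narrower than 250 bp made up 14.9% of the Rb+/+ list and 6.69% of the RbΔL/+ list, a ratio of 0.449 (0.389 to 0.518). At the other side, peaks of at least 500 bp made up 25.7% and 4.58%, a ratio of 0.178 (0.152 to 0.209). RbΔL/+ had the smaller share at both of these limits, but not at 1000 bp, which 10 of its peaks and 6 of Rb+/+ reached. Score and width ran against each other across the peaks of a list, with Spearman's rho of -0.78 in Rb+/+ and -0.46 in RbΔL/+. Peaks of a list share 1 library and 1 calling run, so these coefficients describe the lists only. The median width went from 225 bp at ranks 21 to 200 to 534 bp beyond rank 3000 in Rb+/+, and from 221.5 bp to 470 bp in RbΔL/+. The 20 highest-scoring peaks broke this order, with medians of 466.5 bp in Rb+/+ and 686 bp in RbΔL/+.

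**Figure D3:**
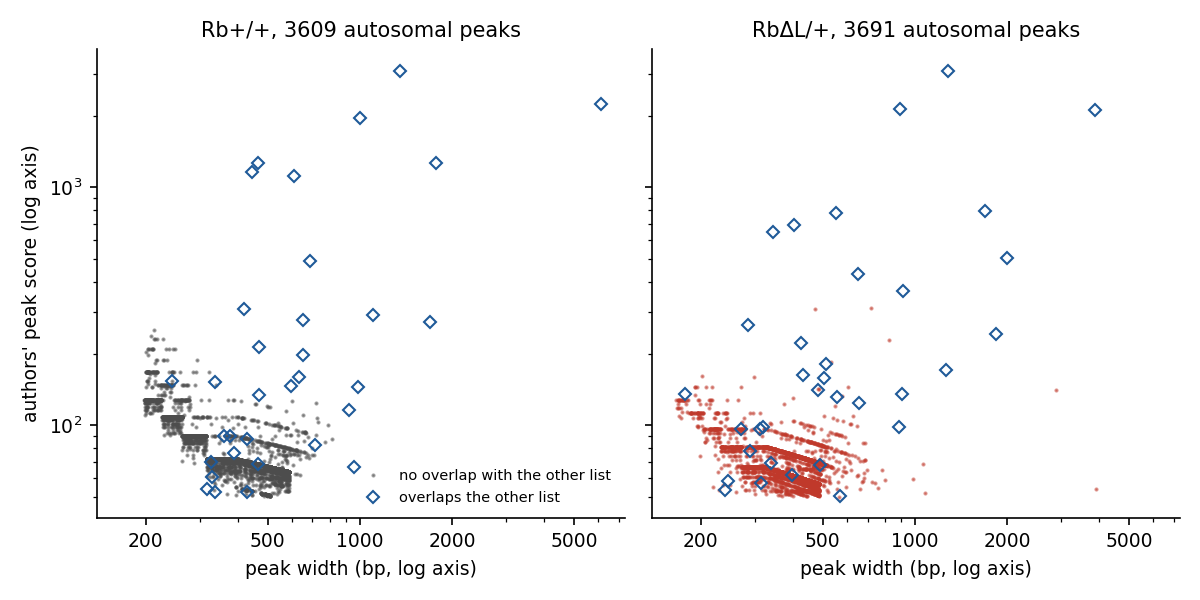
Each point is an autosomal peak of Rb+/+ (left) or RbΔL/+ (right), by its width in bp (horizontal, log axis) and the authors' score (vertical, log axis); open diamonds overlap a peak of the other list. Most peaks lie on bands of equal or slowly falling score below 200, and the diamonds include every peak with a score above 400 in both lists.

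Few positions were listed in both genotypes. Of the RbΔL/+ peaks, 34 of 3691 (0.921%) overlapped a peak of Rb+/+, and of the Rb+/+ peaks 33 of 3609 (0.914%) overlapped one of RbΔL/+. The overlap covered 23.6 kb, which was 1.60% of the RbΔL/+ peak length and 1.64% of that of Rb+/+. At a coarse scale, 1445 windows of 1 Mb held a peak of both, 78.4% of the windows with a RbΔL/+ peak and 77.9% of those with an Rb+/+ peak. These shares lay near the background, since 76.2% of all 2417 windows held a RbΔL/+ peak and 76.8% an Rb+/+ peak.

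Overlap was most frequent at the top of each list. All 10 highest-ranked peaks of either list overlapped the other list, against the 0.921% and 0.914% over all peaks. At ranks 11 to 20 the number was 3 of 10 in Rb+/+ and 6 of 10 in RbΔL/+, and at ranks 21 to 50 it was 1 of 30 and 5 of 30. Ranks 51 to 200 had 6 of 150 and 3 of 150. Beyond rank 200 and up to rank 1000 it was 1 of 800 and 3 of 800. Of the overlapping peaks, 13 of 33 in Rb+/+ and 10 of 34 in RbΔL/+ nevertheless lay beyond rank 200, out of 3409 and 3491 peaks there, and 12 in each list scored under 100. The overlapping peaks formed 33 regions, of which 13 held a peak of rank 20 or better in both lists. Rank was better in RbΔL/+ for 16 of the regions, better in Rb+/+ for 15 and equal for 2.

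**Figure D4:**
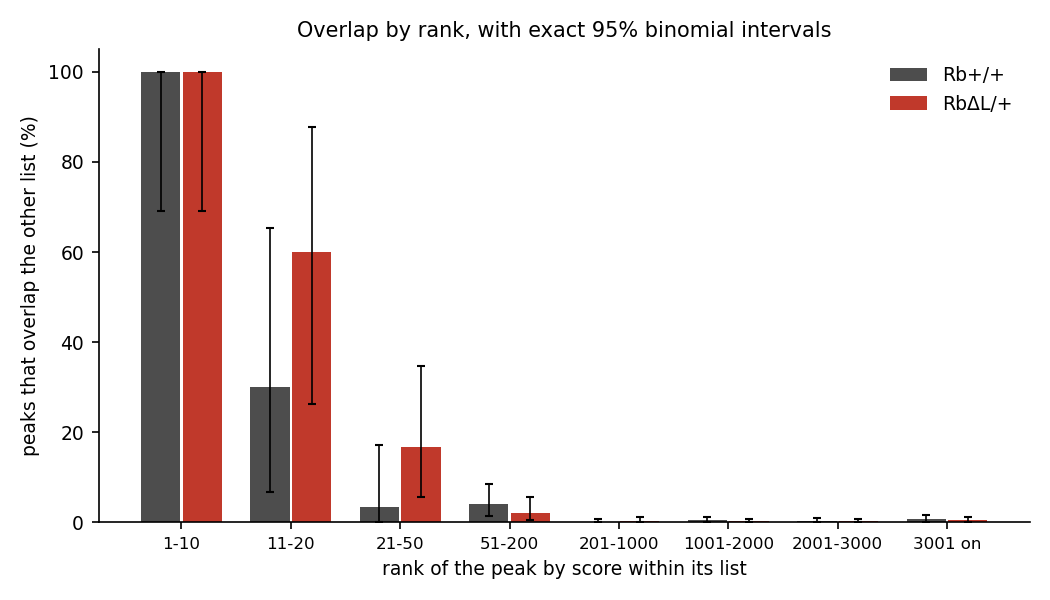
Bars give the percentage of autosomal peaks that overlap the other list, by rank of the peak's score within its own list, for Rb+/+ (grey) and RbΔL/+ (red), with exact 95% binomial intervals. All bars at ranks 1 to 10 stand at 100%, and beyond rank 200 every bar is below 1%.

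The 10 shared regions described next were taken by the worse of their 2 ranks, a choice that favours similar ranks, so their likeness in rank is no result (all positions mm9). On chromosome 2, the region at 98506259 to 98507607 was first in both, and its neighbour at 98502258 to 98503261 ranked 2 in RbΔL/+ and 3 in Rb+/+. A stretch of chromosome 17, at 39979826 to 39985941, ranked 3 and 2. It was 1 peak of 6116 bp in Rb+/+, and in RbΔL/+ it was split into 2 peaks of 3880 and 2002 bp. Chromosome 9 followed with 3023071 to 3024847 (ranks 4 in RbΔL/+ and 5 in Rb+/+) and 35112647 to 35113256 (5 and 7). Chromosome 6 had 103598949 to 103599394 (6 and 6), and chromosome 2 a further region, 98505075 to 98505539 (7 and 4). The last of these 10 were 3001942 to 3002630 (9 and 8) and 2999918 to 3001810 (14 and 12), again on chromosome 9, with 3109795 to 3110259 (16 and 9) on chromosome 12. All 10 were present in the lists of all 4 genotypes. Of all 33 shared regions this held for 12, and 13 were in neither the RbΔL/ΔL nor the Rb-/- list. Chromosome 9 held 12 of the 33 shared regions, and 9 of these lay in its first 10 Mb, at the centromeric end. Over all autosomal peaks, chromosome 9 held 5.79% of the Rb+/+ list and 6.12% of the RbΔL/+ list. Its first 10 Mb held 0.526% and 0.461%. Input reads at the shared regions were not examined, so the part of read pile-ups unrelated to γH2AX was not tested.

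Some regions ranked high in 1 list and low in the other, in both directions. On chromosome 15, 74916602 to 74917568 ranked 10 in RbΔL/+ (score 367.74) and 2569 in Rb+/+ (score 66.66), and was also listed in RbΔL/ΔL but not in Rb-/-. The opposite order was found on chromosome 9 at 123370959 to 123371307 (98 in Rb+/+, 1235 in RbΔL/+) and on chromosome 17 at 36368062 to 36368693 (90 and 1299), regions chosen after their values were seen, like that on chromosome 15. The RbΔL/+ peaks with the best ranks and no overlap in Rb+/+ were 87236216 to 87236934 on chromosome 11 (rank 11), 65044201 to 65044670 on chromosome 9 (rank 12) and 87240042 to 87240865, again on chromosome 11 (rank 15). Next came 65049254 to 65049783 on chromosome 9, at rank 17, so these 4 formed a pair of neighbours on each chromosome. All 4 were also listed in RbΔL/ΔL, at ranks 7, 25, 16 and 10 in the order given, and none in Rb-/-. The Rb+/+ peaks without overlap in RbΔL/+ were led by 62458709 to 62458920 on chromosome 7 (rank 13), 33493204 to 33493411 on chromosome 2 (rank 14) and 96796917 to 96797130 on chromosome 1 (rank 15, tied with others). These 3 were 208 to 214 bp wide and were listed in no other library. The 4 of RbΔL/+ were 470 to 824 bp wide, but the next 6 without overlap, at ranks 21 to 25 with ties ordered by position, were also listed in no other library, and 4 of those were 192 to 217 bp wide.

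Counting these 4, 17 of the 3657 RbΔL/+ peaks that were absent from the Rb+/+ list (0.465%, 0.271 to 0.743) overlapped a RbΔL/ΔL peak, and 2 (0.055%, 0.0066 to 0.197) overlapped an Rb-/- peak. For the 3576 Rb+/+ peaks absent from the RbΔL/+ list the numbers were 3 and 5. Over all autosomal peaks, 0.840% of the RbΔL/+ list overlapped RbΔL/ΔL and 0.596% overlapped Rb-/-, against 0.443% and 0.665% of the Rb+/+ list. The RbΔL/ΔL list, with 1874 autosomal peaks, was somewhat longer than that of Rb-/-, with 1546. The 17 peaks lay on 10 chromosomes. Of them, 9 ranked 200 or better in RbΔL/+, while 3491 of all 3691 RbΔL/+ peaks ranked beyond 200. With 1 library of each genotype, an effect of the ΔL allele and a feature that these 2 libraries or their calling share cannot be told apart.

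RbΔL/+ also had wide peaks near centromeric ends that Rb+/+ lacked. Lack of overlap was the rule over all widths, for 3657 of the 3691 RbΔL/+ peaks and 3576 of the 3609 Rb+/+ peaks. Peaks of at least 1000 bp numbered 6 in Rb+/+, all of them overlapping the RbΔL/+ list. In RbΔL/+ they numbered 10, of which 4 had no Rb+/+ counterpart, a smaller part than over all widths. Of these 4, 3 lay close together on chromosome 11, at 3031298 to 3034176, 3049488 to 3050565 and 3070085 to 3073981, and 1 on chromosome 17 at 3081462 to 3082526. Their ranks were 34, 3628, 3478 and 1248 in that order, and the first and the last were also listed in RbΔL/ΔL. These peaks were picked after their widths were seen. On chromosome 11, RbΔL/+ had 5 peaks before 3.1 Mb and Rb+/+ had 0, a limit set around the peaks just named. In the whole window from 3000001 to 4000000 the numbers were 8 and 3.

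Peak density differed modestly between autosomes, and not in the same order in both lists. It ran from 1.16 peaks per Mb (chromosome 17) to 1.77 (chromosome 19) in Rb+/+ and from 1.22 (chromosome 14) to 1.83 (chromosome 9) in RbΔL/+, measured up to the last peak of each chromosome. Chromosome 17, the least dense in Rb+/+, had 1.57 peaks per Mb in RbΔL/+. Across the 19 autosomes, which share 1 library in each list, the densities of the lists had a Pearson r of 0.418 and a Spearman rho of 0.370. The share of RbΔL/+ peaks relative to Rb+/+ was highest on chromosomes 17 (149 against 110 peaks, 1.32, 1.04 to 1.69), 11 (219 against 174, 1.23, 1.01 to 1.49) and 8 (206 against 174, 1.16, 0.951 to 1.41). It was lowest on chromosomes 3 (216 against 274, 0.771, 0.649 to 0.916), 18 (133 against 151, 0.861, 0.685 to 1.08) and 15 (147 against 164, 0.876, 0.705 to 1.09). The intervals held 1 on 16 of the 19 autosomes and are not adjusted for their number.

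**Figure D5:**
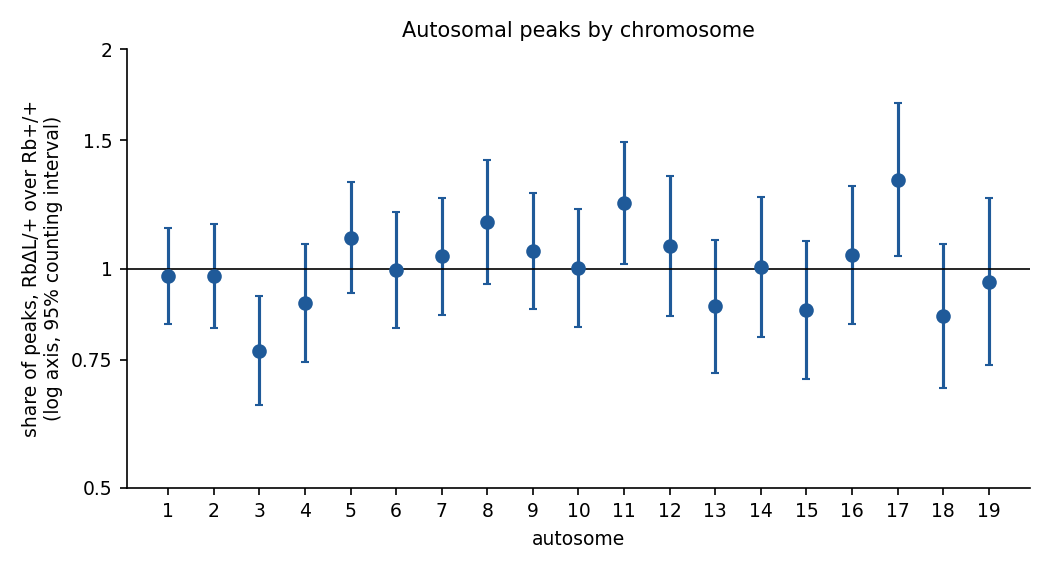
The share of autosomal peaks on each chromosome in RbΔL/+ is divided by that in Rb+/+ (log axis), with 95% counting intervals, and the line marks equal shares. Chromosomes 17 and 11 lie above 1 and chromosome 3 below it with their whole intervals.

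Position along the chromosomes differed little over all peaks. The first 10 Mb, where the acrocentric mouse chromosomes carry their centromeres, held 5.43% (196) of Rb+/+ peaks and 6.15% (227) of RbΔL/+ peaks, a ratio of 1.13 with an interval of 0.941 to 1.36. With only peaks scoring 100 or more, the shares were 5.22% (41 of 786) and 9.55% (15 of 157), a ratio of 1.83 (1.04 to 3.23). That limit kept 21.8% of the Rb+/+ list and 4.25% of the RbΔL/+ list, so unlike parts of the lists are compared. Of the peaks kept, 21 in Rb+/+ and 22 in RbΔL/+ overlapped the other list, a larger part of the shorter RbΔL/+ set. The part of these overlapping peaks in the ratio was not tested. Among 4 equal parts of each chromosome, only the second from the centromeric end gave an interval that left out 1, with 26.0% of Rb+/+ and 23.7% of RbΔL/+ peaks (0.911, 0.841 to 0.987). RbΔL/+ peaks lay slightly closer to each other. The median distance to the nearest peak of the same list was 232 kb (218 to 244) in Rb+/+ and 214 kb (203 to 226) in RbΔL/+, and 27.2% and 30.02% of peaks had such a neighbour within 100 kb (ratio 1.10, 1.03 to 1.19). Within 10 kb the shares were 3.69% and 4.31%, with a ratio of 1.17 (0.933 to 1.46). Being neighbours is mutual, so the peaks are not independent here and these intervals can be too narrow. The RbΔL/+ list was also slightly longer, with 3691 against 3609 peaks, and the part of its length in these distances was not tested. From a RbΔL/+ peak the nearest Rb+/+ peak was at a median of 225 kb (213 to 236), about as far as the nearest peak of its own list. The densest window of 1 Mb was the same in both lists, 3000001 to 4000000 on chromosome 9, with 11 peaks in Rb+/+ and 9 in RbΔL/+.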

How the data were processed

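Analysed here were 1 γH2AX ChIP library of RbΔL/+ cells, 1 of Rb+/+ cells and the input library; the other ChIP libraries were used only where named. The authors deposited whole-number read counts for 12 repeat classes and 13 satellite families, and for each ChIP library a peak list with a score per peak. The tools Bowtie 1.0 and MACS 1.4.2 and the build mm9 come, without a role, per the submitters' processing notes. How reads with many matching places or duplicates were treated, which control and limits MACS had and which read end was used is not given in the sources used here.

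Each count was divided by its library's total over the 12 classes. Shares have exact (Clopper-Pearson) 95% intervals and ratios have 95% counting intervals on the log scale. Peaks were taken from the 19 autosomes, ranked by score within a list, and compared by overlap of at least 1 bp. Tied peaks share the best rank of the tie where a peak's rank is printed, and are ordered by chromosome and position where peaks are counted by rank or the top 1000 taken. Named items were all classes, families with over 3 counts in any of these libraries, and peaks by rank. Other items were chosen after their values were seen, and members and rules were chosen with earlier results of these data known. With 1 library a genotype no test was made. Overlap and interval code was checked on simulated data and with bedtools 2.31.1; scripts ran in Python 3.11.15 (pandas 2.3.3, numpy 2.4.6, matplotlib 3.10.9, scipy 1.17.1). Alternatives were other denominators, a median class ratio of 1, a score of at least 100, the top 1000 peaks, merging within 1000 bp, and other windows and overlap limits. Annotation and sequence of mm9 were not used here.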

Additional observations from a re-analysis of the deposited data

Results flagged for a closer look

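Classes and families were picked out where RbΔL/+ and Rb+/+ lay on opposite sides of the input, each beyond counting error. The difference between the genotypes was not tested, because each rests on 1 library, and the same input enters both ratios. RbΔL/+ was above and Rb+/+ below the input for SINEs (1.11 and 0.980), other transposable elements (1.17 and 0.874), the class named other (1.14 and 0.857), tandem repeats (1.01 and 0.942) and the satellite family ZP3AR (1.35 and 0.509). The reverse held for SYNREP_MM, at 0.935 times the input in RbΔL/+ and 1.05 in Rb+/+.

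Chromosome Y, which lies outside the autosomes compared, carried 18 peaks in RbΔL/+ and 0 in Rb+/+. They spanned 113 kb, from 2779645 to 2892245 (mm9), had a median width of 663 bp and reached a score of 132.31. Chromosome X held 80 peaks in RbΔL/+ (2.11%, 1.68 to 2.62) and 248 in Rb+/+ (6.43%, 5.68 to 7.25). The labels give no sex of the embryos, and the part of sex in any difference between these libraries was not tested.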

How the results depend on the processing

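Of the 66 ratios of single classes or families recomputed with another reference, 7 changed direction. A further 39 kept their direction but left the counting interval of the ratio over all counts, and 20 stayed inside it. With repeat counts only, DNA transposons stood at 0.997 and tandem repeats at 0.990. With the median class ratio set to 1, DNA transposons were at 0.964, endogenous retroviruses at 0.988, tandem repeats at 0.958 and SATMIN at 0.991, and among satellite counts alone SATMIN was at 0.956. The intervals of both of these DNA transposon values and of SATMIN at 0.991 held 1. So did those of LTR retrotransposons with the median class ratio set to 1 (1.08, 0.982 to 1.195) and of SATMIN among repeat counts (1.02, 0.992 to 1.06), which kept their direction. Among counts outside the unique genome and satellites, the DNA transposon ratio kept its direction too, and its interval held 1 (1.02, 0.972 to 1.08). The satellite ratio of 1.16 was 1.07 among repeat counts, 1.16 against counts outside satellites (1.161 against 1.156) and 1.04 with the median class ratio set to 1, where 5 instead of 9 classes were higher. These changes follow from the denominators.

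Limited to scores of 100 or more, the RbΔL/+ list held 0.1997 times as many peaks as that of Rb+/+ instead of 1.02 times, median widths were 236 bp in Rb+/+ and 217 bp in RbΔL/+, 11.5% of RbΔL/+ peaks overlapped Rb+/+, and 9.55% lay in the first 10 Mb against 5.22% of Rb+/+ peaks. Among the top 1000 peaks, median widths were 246 and 335 bp, overlap was 2.0%, and 2.2% and 2.9% had a neighbour within 10 kb. Without the first 10 Mb, overlap was 0.606%. The first 5 Mb held 1.88% of Rb+/+ and 2.22% of RbΔL/+ peaks, and the first 20 Mb 12.3% and 12.1%. A neighbour lay within 5 kb for 2.08% and 2.33%, and within 100 kb for 27.2% and 30.02%. Why the score limit changes these values was not tested. No paired analysis was possible because each genotype has 1 library. The alternatives without chromosome 9, without the first 10 Mb, without the unique genome and satellites, and with the median class for families were added after the data were seen.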
